A study of Mus musculus with 12 samples.

Results

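The nuclear genes of oxidative phosphorylation encode proteins of the mitochondrial inner membrane that couple the oxidation of fuel to the making of ATP. They were taken from the tables by gene name: the Nduf subunits of complex I, Sdha to Sdhd of complex II, the Uqcr genes of complex III, the Cox4 to Cox8 genes of complex IV and the Atp5 genes of complex V, leaving out named pseudogenes. The rule found 87 of 25655 genes, with 39 in complex I, 4 in complex II, 8 in complex III, 18 in complex IV and 18 in complex V. Gene ontology terms in the tables name the matching complex for 79 of the 87 genes. Ndufa4 carries terms for both complex I and complex IV, and its paralogue Ndufa4l2 carries a term for complex IV only, so both are counted with complex I here by name alone.

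The samples were labelled as PDGFRα+ cells sorted from muscle and bone of female mice, and were profiled by 3' mRNA sequencing. PDGFRα is a marker of mesenchymal stromal and progenitor cells. In bone, red cell (erythroid) markers held most of the summed expression, as given below, so the bone values are not those of stromal cells alone. In both tissues the 3 knockout samples carried PDGFRα-CreER, a tamoxifen-inducible Cre driven in cells that express PDGFRα, with both Esr1 alleles floxed (Esr1flox/flox); Esr1 encodes estrogen receptor alpha. Of the 3 muscle controls, replicates 1 and 2 carried PDGFRα-CreER alone and replicate 3 carried PDGFRα-CreER with Esr1flox/+. Of the 3 bone controls, replicate 1 was Esr1flox/flox without the Cre, and replicates 2 and 3 carried PDGFRα-CreER alone. The bone gate took CD45-, CD31-, PDGFRα+ cells, and the muscle gate was in addition Vcam1-. The labels give no age and no tamoxifen schedule. Whether each replicate was its own animal is also not labelled, so the p-values rest on a spread between samples that may be partly technical. The authors' deposited table for each tissue gives, per gene, a log2 fold change of knockout over control with its p and its false discovery rate (FDR), and the higher of its knockout and control means, called its level here, on a scale the header does not name. Values per sample could not be tied to a label and are not given, so the error of a fold change was derived from its p.

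Oxidative phosphorylation runs electrons from NADH (complex I) and from succinate (complex II) through ubiquinone to complex III, then by cytochrome c to complex IV, where oxygen is reduced. Complexes I, III and IV pump protons out of the matrix, and complex V, the ATP synthase, uses their return to make ATP. All complexes but complex II mix subunits from nuclear genes with subunits made inside the mitochondrion, and several complex IV subunits exist as a widespread form and a form restricted to striated muscle, lung or testis. The transcription factors NRF1 and GABP (an ETS factor), the coactivator PGC-1α and the estrogen-related receptors, which are orphan relatives of the estrogen receptors, are known regulators of these genes.

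Promoter windows show what the genes share in sequence. RefSeq windows on GRCm38.p6, running from 250 bases before to 50 bases after the start, were matched for 68 of the 87 genes, giving 73 windows. Among the genes with no matched window were Atp5a1, Atp5mpl, Atp5o_1, Atp5o_2, Cox4i1, Cox4i2, Cox6a2, Cox6c, Cox8c, Ndufa2, Ndufa4l2, Ndufb11b, Ndufb9, Ndufs1, Sdhc, Uqcrb, Uqcrc2 and Uqcrq. The 4 stretches printed below are the 250 bases before the start of the complex I genes Ndufs5 and Ndufa3, the 2 members with the smallest p in muscle, and of Cox7a1 and Cox7a2, the striated muscle and widespread forms of one complex IV subunit. They lie at chr4:123718187-123718436 (minus strand), chr7:3617123-3617372 (plus strand), chr7:30183921-30184170 (plus strand) and chr9:79759854-79760103 (minus strand), and capitals mark the motif matches.
Ndufs5: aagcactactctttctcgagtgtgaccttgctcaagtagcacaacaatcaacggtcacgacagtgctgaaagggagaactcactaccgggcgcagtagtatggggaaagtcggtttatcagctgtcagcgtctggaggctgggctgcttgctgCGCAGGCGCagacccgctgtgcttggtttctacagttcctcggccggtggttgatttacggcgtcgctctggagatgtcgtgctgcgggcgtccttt
Ndufa3: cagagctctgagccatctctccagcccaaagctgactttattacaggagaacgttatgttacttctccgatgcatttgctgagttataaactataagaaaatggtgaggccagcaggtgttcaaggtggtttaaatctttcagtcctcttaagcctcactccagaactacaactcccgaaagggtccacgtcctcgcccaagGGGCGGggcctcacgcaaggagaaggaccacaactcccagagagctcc
Cox7a1: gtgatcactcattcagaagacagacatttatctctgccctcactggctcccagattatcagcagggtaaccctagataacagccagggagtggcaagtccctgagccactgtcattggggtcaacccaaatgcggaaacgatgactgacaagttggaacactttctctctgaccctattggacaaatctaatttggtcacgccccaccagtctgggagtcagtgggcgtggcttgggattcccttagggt
Cox7a2: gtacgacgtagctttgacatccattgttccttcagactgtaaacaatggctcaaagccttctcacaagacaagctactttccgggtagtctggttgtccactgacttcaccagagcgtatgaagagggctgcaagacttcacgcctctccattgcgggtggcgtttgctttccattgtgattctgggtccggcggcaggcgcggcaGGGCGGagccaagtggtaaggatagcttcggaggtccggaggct
The capitals in Ndufs5 are an NRF1 match that begins 97 bases before the start. Those in Ndufa3 and Cox7a2 are SP1 matches beginning 48 and 44 bases before it, and none of the motifs searched was found in the Cox7a1 stretch.

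The NRF1 motif (GCGCNTGCG) showed the largest gap in percentage points between these promoters and all promoters. On either strand it was found in 24 of 73 windows (32.9%), against 6.31% of all 32851 promoter windows and 12.1% of the windows of genes with a muscle p. The ETS motif (CCGGAAG) was found in 17 windows (23.3%), against 8.86% of all windows and 15.9% of windows of genes with a muscle p. The YY1 motif (AAGATGGCG) was found in 7 windows (9.59%), against 1.40% of all windows and 2.72% of windows of genes with a muscle p. The SP1 motif (GGGCGG) was in 39.7% of the windows, in 35.7% of all windows and in 60.3% of windows of genes with a muscle p, so here the subunits were below the expressed genes. The estrogen-related receptor motif (TCAAGGTCA) was in 2 windows (2.74%), against 0.423% of all windows. The palindromic estrogen response element, GGTCA and TGACC separated by any 3 bases, was in 0 of the 73 windows and in 0.0700% of all windows. A base could count toward more than one motif, and the windows of these genes had a median G and C content of 57.7%, above that of all windows (52.7%) and below that of windows of genes with a muscle p (60.3%). A match describes letters in a window and says nothing of binding.

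By complex, NRF1 was found in 8 of 17 windows of complex V, 3 of 5 of complex III, 2 of 3 of complex II and 10 of 35 of complex I, and in 1 of 13 windows of complex IV. YY1 matches were found in 5 windows of complex I and 2 of complex V. Genes with an NRF1 match had a median log2 fold change of -0.15 in muscle (23 genes), against -0.30 for the 44 genes without one. In bone the medians were 0.27 for 23 genes with a match and 0.36 for 43 genes without. For the ETS motif the muscle medians were -0.25 with a match (17 genes) and -0.26 without (50 genes). The bone medians for ETS were 0.21 (17 genes) and 0.36 (49 genes). NRF1 matches were spread unevenly over the complexes, so a match and the complex cannot be told apart here. All these medians are a description, and the gaps between them were not tested.

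**Figure D1:**
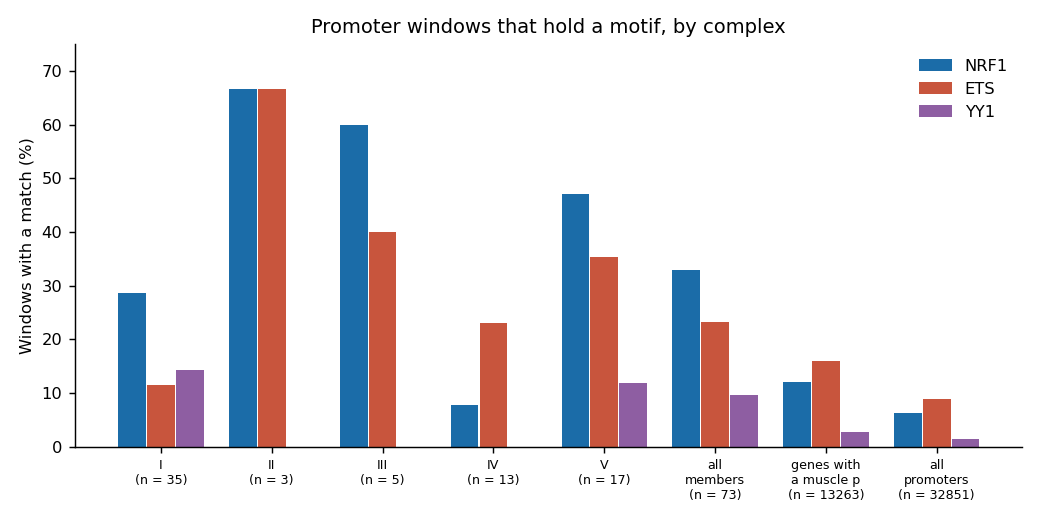
Share of RefSeq promoter windows (%) that hold an NRF1, ETS or YY1 match, for complexes I to V, all matched members, the promoters of genes with a muscle p and all promoters; n is the number of windows. NRF1 stands at 32.9% over all members and 6.31% over all promoters, and complex IV has 1 window of 13.

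In muscle, no subunit of any complex passed the FDR of 0.05, and most fold changes lay slightly below 0 in the knockout. Of the 87 genes, 83 had a p, an FDR was kept by 79, and 0 of the 79 were called, where 9 of 7107 genes over the whole table were (0.127%). The median log2 fold change was -0.24, with 59 of 83 genes (71.1%) below 0. Over all 13158 genes with a p the median was 0.12 and 46.5% were below 0. Among genes with a level of at least 50, 51 of 69 subunits (73.9%) were below 0 with a median of -0.24, against a median of -0.00 over 3149 genes. The derived standard error of a single subunit had a median of 0.48. At an unadjusted p under 0.05, 1 subunit was higher, where 6.41% of all genes were, and 4 were lower, where 5.31% of all genes were; 5 of 83 is no larger a share than that of the whole table. Wherever a gene is given with a signed number and no unit, that number is its log2 fold change of knockout over control. In a bulk sample, fewer cells of a type and less RNA per cell cannot be told apart.

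Complex by complex, the muscle medians spanned 0.29 log2 units, while means spanned 0.60 and medians over genes with a level of at least 50 spanned 0.76. Complex I had the lowest, -0.34, with 29 of 38 genes below 0. Complex III had -0.22 with 6 of 8 below 0, and complex IV had -0.21 with 11 of 16 below 0. Complex V had -0.07 with 11 of 17 below 0, and complex II had -0.05 with 2 of 4, but 0.42 over its 3 genes with a level of at least 50. No test of the difference between complexes was made, since subunits of 1 sample are not replicates.

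**Figure D2:**
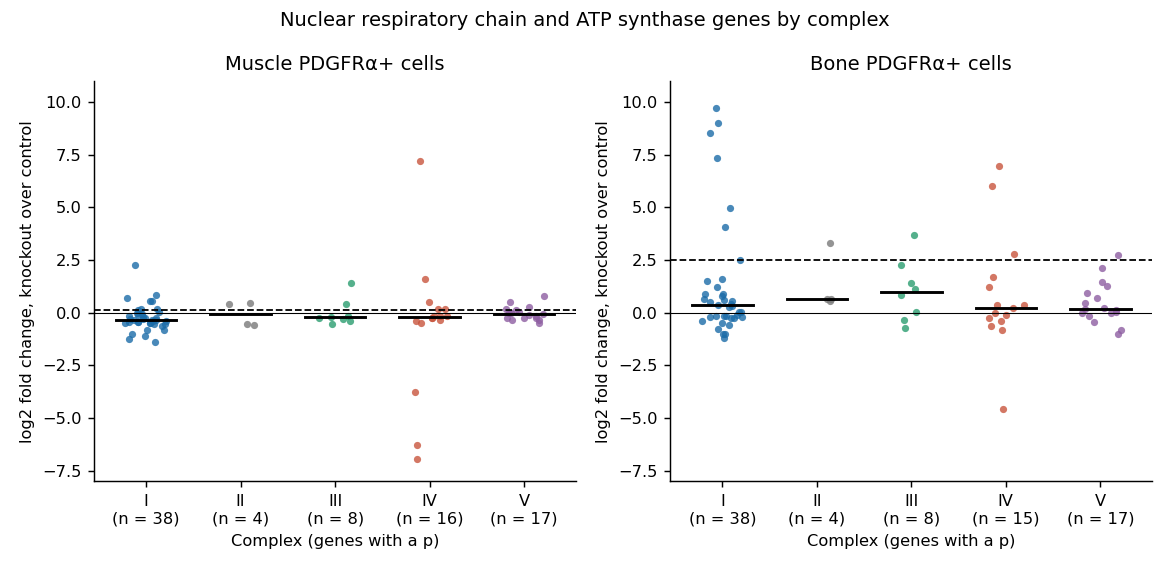
Log2 fold change of knockout over control for each gene with a p in muscle (left) and bone (right), by complex. Points are genes, short bars are medians of a complex, and the dashed line is the median of all genes, 0.12 in muscle and 2.51 in bone; muscle medians lie between -0.34 and -0.05.

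Complex I, which oxidises NADH, held the 2 muscle genes with the smallest p. Ndufs5 (ENSMUSG00000028648, chromosome 4, 123712710 to 123718202 on GRCm38) encodes a small accessory subunit. Its log2 fold change was -1.22 per the authors' deposited table (p = 0.00345, FDR = 0.262), with a derived 95% interval of -2.04 to -0.40. At least 80 of the last 100 bases of an Ndufs5 transcript align to a BC002163 transcript. Where in that transcript they lie was not checked, so reads of the 2 genes may have been mixed and the value is uncertain. Ndufa3 (ENSMUSG00000035674, chromosome 7, 3617373 to 3620327) encodes a small membrane-arm subunit and had -1.10 per the authors' deposited table (p = 0.0140, FDR = 0.504; derived interval -1.99 to -0.22). Neither passed, and their levels per the authors' deposited table were 311 and 269. The 31 accessory subunits with a p had a median of -0.34, with 25 below 0. Grouped by the letter in their names after the values were seen, 10 of 11 Ndufb genes, mostly of the membrane arm, were below 0 (from -0.63 to 0.13, median -0.40), as were 10 of 14 Ndufa genes (median -0.24) and both Ndufc genes. None of the Ndufb genes reached an unadjusted p under 0.05. Ndufa1, a small membrane subunit with the highest level of complex I (641), had -0.16 per the authors' deposited table, with a derived interval of -0.81 to 0.50. Ndufa10, singled out after its value was seen, was at the other end with 2.28 per the authors' deposited table (p = 0.0878, FDR = 0.961).

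The 7 core subunits of complex I, which carry the flavin and the iron-sulfur clusters, were measured less precisely, with a median derived standard error of 1.27. Their median was -0.33, with 4 of 7 below 0. Ndufs3 had -1.37, Ndufs7 -0.83, Ndufv2 -0.45 and Ndufs8 -0.33 per the authors' deposited table. Ndufv1, which binds NADH, had 0.54 and Ndufs1 0.17 per the authors' deposited table. The smallest p among them was 0.282, for Ndufs3, and each derived interval reached beyond 1 on at least one side of 0.

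Complex II, succinate dehydrogenase, is also an enzyme of the tricarboxylic acid cycle, and its 4 muscle values fell on both sides of 0. Sdha, the flavoprotein, had 0.46 and Sdhb, the iron-sulfur subunit, 0.42 per the authors' deposited table. The membrane anchors Sdhc and Sdhd had -0.58 and -0.52 per the authors' deposited table. The smallest p was 0.227, for Sdhc, which also had the highest level of the complex (202). The median derived standard error of the 4 genes was 0.77, and no test of the catalytic against the anchor subunits was made.

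Complex III passes electrons from ubiquinol to cytochrome c. Uqcrc2, a core protein, had the smallest p in muscle, with 1.43 per the authors' deposited table (p = 0.0962, FDR = 0.969; derived interval -0.25 to 3.12). Uqcrb, a small ubiquinone-binding subunit, was next with -0.53 per the authors' deposited table (p = 0.185). The hinge protein gene Uqcrh, with the highest level of the complex (427), had -0.37 per the authors' deposited table, and the Rieske iron-sulfur protein gene Uqcrfs1 had -0.26. The remaining small subunits Uqcr10, Uqcrq and Uqcr11 had -0.30, -0.19 and -0.15, and the core protein gene Uqcrc1 had 0.40 per the authors' deposited table.

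Complex IV, cytochrome c oxidase, showed its widest values in the restricted isoforms, at low expression. Cox6a2, the striated muscle form of subunit 6a, had 7.18 per the authors' deposited table (p = 0.0283, no FDR) at a level of 7.26. Cox7a1 and Cox8b, also striated muscle forms, had -6.94 (p = 0.0302) and -6.28 (p = 0.0473) per the authors' deposited table, at levels of 5.48 and 3.44. Cox4i2, the lung form, had -3.78 per the authors' deposited table at a level of 0.631. So large a fold change at so low a level can arise where one group has almost no reads, which could not be looked up, so it does not measure size. The testis form Cox6b2 had 1.62 per the authors' deposited table (p = 0.313), and Cox7b2 and Cox8c were listed at 0. The 3 striated muscle forms thus did not share a sign.

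The widespread partners of those isoforms were expressed at levels of 177 to 605, and none reached an unadjusted p under 0.05 in muscle. Cox4i1 had 0.49 and Cox6a1 0.17 per the authors' deposited table, while Cox6b1 had -0.25, Cox7a2 -0.38, Cox7b -0.34 and Cox8a -0.13. Ndufa4, counted by name with complex I, had -1.0 per the authors' deposited table (p = 0.0580, FDR = 0.861), and Ndufa4l2, its paralogue known as a target of hypoxia signalling, had 0.83 (p = 0.493). Cox7a2l, an assembly factor of respiratory supercomplexes in spite of its name, had -0.13 per the authors' deposited table. Cox6c, with the highest level of all the subunits (1378), had -0.17 per the authors' deposited table, with a derived interval of -0.77 to 0.43. Of the subunits with no second form in the list, Cox5b had -0.49, Cox7c -0.26 and Cox5a 0.16 per the authors' deposited table.

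Complex V, the ATP synthase, had muscle values between -0.47 and 0.79 over all 17 genes with a p, and 0 of them reached an unadjusted p under 0.05. The F1 head, where ATP is made, had -0.35 for Atp5a1 (alpha), 0.50 for Atp5b (beta), -0.07 for Atp5c1 (gamma), -0.10 for Atp5d (delta) and 0.27 for Atp5e (epsilon) per the authors' deposited table. The 3 genes that encode the same mature c-ring protein had 0.79 (Atp5g1, p = 0.240), -0.16 (Atp5g2) and -0.24 (Atp5g3) per the authors' deposited table. Atp5g3 had by far the highest level of the 3, 1308 against 122 for Atp5g1 and 120 for Atp5g2. Atp5md, a small membrane subunit, had the smallest p of the complex, with -0.47 per the authors' deposited table (p = 0.115). The other subunits of the stalk and membrane parts ran from -0.36 (Atp5l) to 0.16 (Atp5h), with Atp5pb at -0.27, Atp5j2 at -0.24, Atp5mpl at -0.02, Atp5j at 0.03 and Atp5o_2, which connects head and stalk, at 0.14 per the authors' deposited table. The transcript ends of Atp5c1, Atp5g2, Atp5h, Atp5j2, Atp5o_1, Atp5o_2, Cox6a1 and Cox7c match other genes, so their values are uncertain as well.

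The intervals show how much change the muscle data leave room for. For 17 of 83 subunits the derived 95% interval lay within a 2-fold change in either direction, 8 of them in complex V, 5 in complex IV and 4 in complex I. Among the 17 were Atp5g3 (-0.84 to 0.35), Cox7c (-0.86 to 0.33) and Cox8a (-0.75 to 0.49). For the other subunits a 2-fold difference in one direction or both was within the interval. The intervals assume a normal approximation to a test that the sources used here do not name.

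**Figure D3:**
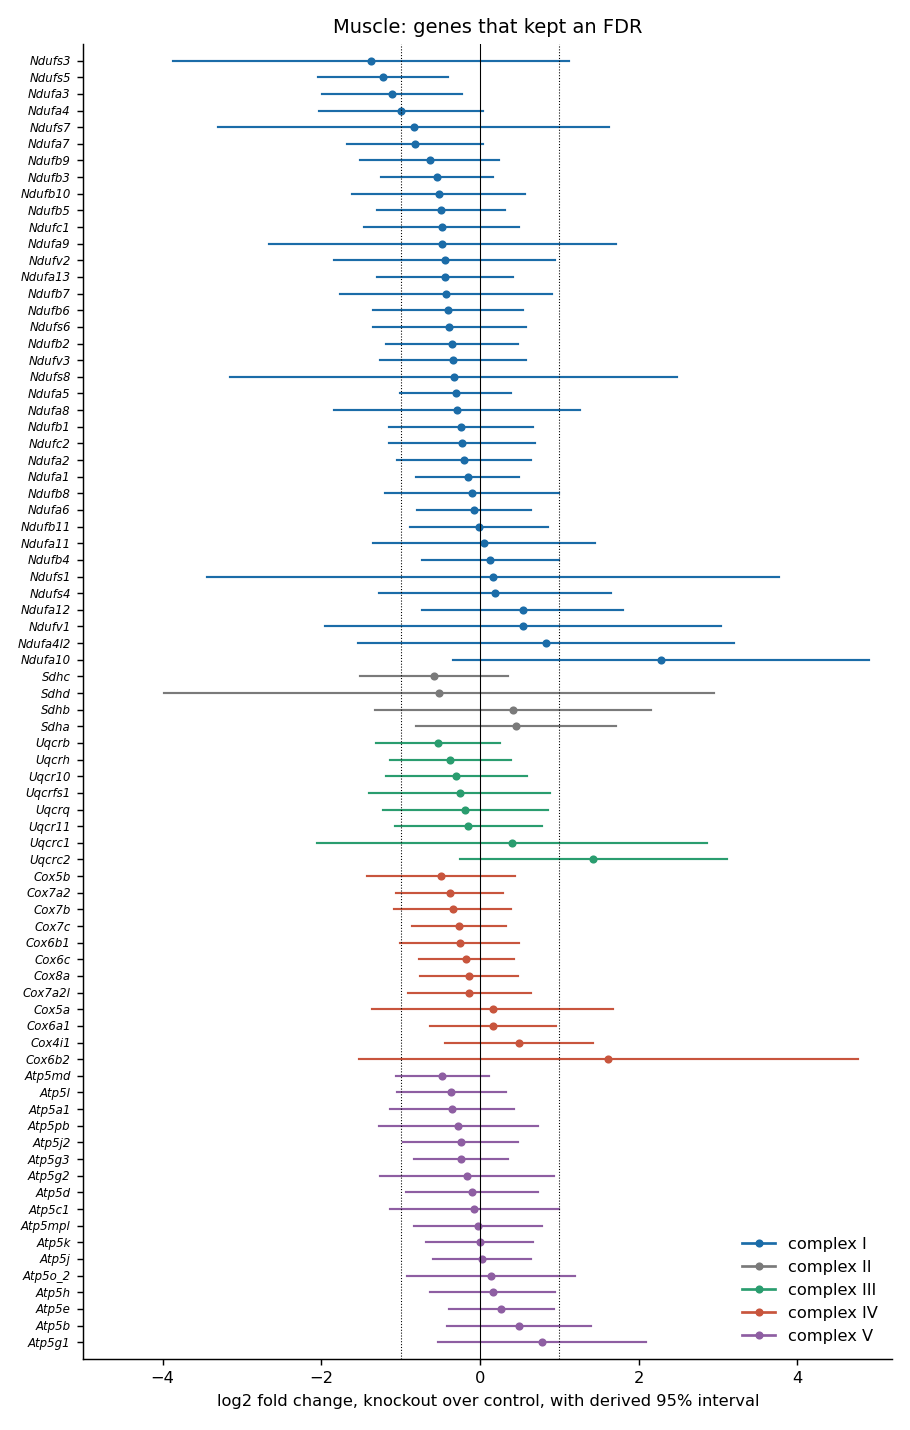
Log2 fold change of knockout over control in muscle for 78 of the 79 subunits with an FDR, ordered within each complex; lines are derived 95% intervals and dotted lines mark a 2-fold change. Ndufs5 (-1.22) and Ndufa3 (-1.10) are the 2 whose interval leaves out 0.

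In bone, again no subunit passed the FDR of 0.05, and the fold changes were far less precise. Of the 87 genes, 82 had a p and 80 an FDR, and 0 of the 80 were called, where 3 of 8534 genes were (0.0352%). The median log2 fold change was 0.37, with 52 of 82 genes (63.4%) above 0, while over all 10518 genes the median was 2.51 and 69.7% were above 0. The subunits' median derived standard error was 1.33, and no interval lay within a 2-fold change. At an unadjusted p under 0.05, 7 subunits were higher, where 28.8% of all genes were, and 0 were lower, where 4.2% of all genes were. At an FDR under 0.1, 5 subunits were higher, all in complex I by name, where 28.1% of all genes were. In muscle 0 subunits reached an FDR under 0.1, where 0.0844% of all genes did so on the higher side. The bone shares of subunits were below those of the whole table. Beside them, 10 of 10 neutrophil markers and 9 of 10 macrophage markers were above 0, and their part in these values was not tested.

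Expression level separated the bone subunits. The 26 subunits with a level under 50 had a median of 1.07 with 84.6% above 0. All genes under 50 had a median of 3.32 with 74.5% above 0. The 56 subunits at or above 50 had a median of 0.05, with 30 above 0, against -0.20 over all genes at that level. Of those 1653 genes, 731 were above 0. Spearman's rho between level and log2 fold change was -0.44 over the 82 subunits with a p in bone and -0.11 over the 83 with a p in muscle. These are across genes, which are not independent, and the 2 quantities share the same group means. By complex, the bone medians were 0.98 in III (6 of 8 above 0), 0.65 in II (4 of 4), 0.35 in I (23 of 38), 0.20 in IV (8 of 15) and 0.16 in V (11 of 17). They spanned 0.81, with no test between complexes, and at a level of at least 50 the median of complex I was below 0, at -0.13.

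**Figure D4:**
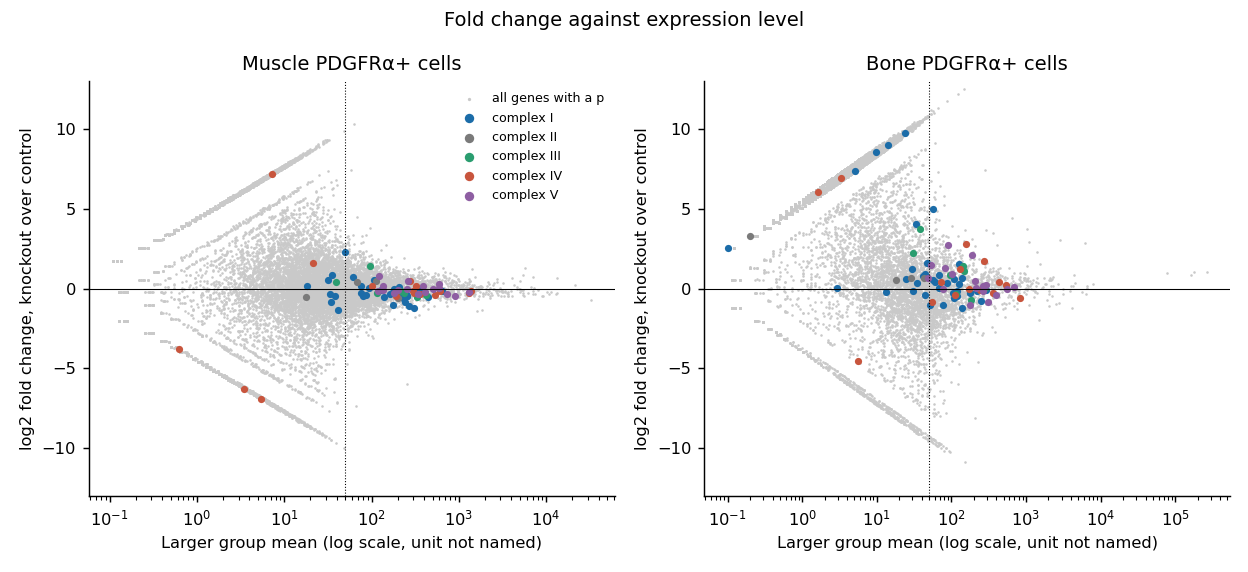
Log2 fold change against the level (larger group mean, log axis) in muscle (left) and bone (right); grey points are all genes with a p, coloured points are subunits by complex, and the dotted line marks a level of 50. In bone the subunits under 50 have a median of 1.07 and those at or above it 0.05.

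Among the bone genes with the smallest p were core and accessory subunits of complex I at low levels. Ndufs3 had 9.72 (p = 0.00278) and Ndufa12 8.54 (p = 0.00709) per the authors' deposited table, each at an FDR of 0.0784, a value tied across 1253 genes. Their levels per the authors' deposited table were 23.6 and 9.61, so the same limit holds for these fold changes. Ndufa4 had 4.99 at a level of 57.2 (FDR = 0.0863) and Ndufa4l2 had 7.36 at 5.15 (FDR = 0.0926) per the authors' deposited table. Of the core subunits, Ndufs7 had 0.59, Ndufv2 0.34, Ndufs1 0.06 and Ndufv1 -1.03 per the authors' deposited table, and Ndufs8 (2.51) had a level of only 0.101. Ndufa1, again with the highest level of complex I (290), had -0.11 per the authors' deposited table.

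In the other complexes the bone values were scattered around or above 0. Sdha had 0.67, Sdhb 0.63, Sdhc 0.55 and Sdhd 3.29 per the authors' deposited table, the last at a level of 0.202. Uqcrc2 had 3.71 (p = 0.0998) and the small subunit Uqcr11 had 1.39 (p = 0.228) per the authors' deposited table. Cox5b, a zinc-binding subunit of complex IV, had 2.79 at a level of 155 (p = 0.0369, FDR = 0.105) and Cox7a1 had 6.95 at 3.34 (p = 0.0363, FDR = 0.105) per the authors' deposited table. Cox7c, with the highest level of the bone subunits (835), had -0.62 per the authors' deposited table (p = 0.350). The isoforms Cox6a2, Cox4i2 and Cox6b2 had 6.03, -4.56 and -0.82 per the authors' deposited table, and Cox8b was listed at 0. Their partners had 1.72 (Cox7a2), 1.24 (Cox4i1), 0.39 (Cox8a), -0.03 (Cox7b), -0.11 (Cox6b1) and -0.27 (Cox6a1) per the authors' deposited table, and Cox7a2l had 0.38. In complex V, Atp5j2 had 2.12 (p = 0.0894) and Atp5pb, of the peripheral stalk, 2.75 (p = 0.154) per the authors' deposited table. The F1 genes ran from -1.01 (Atp5d) to 1.46 (Atp5c1) per the authors' deposited table, with Atp5a1 at -0.42, Atp5b at -0.15 and Atp5e at 0.16, and the c-ring genes had 0.68 (Atp5g1), 1.26 (Atp5g2) and 0.11 (Atp5g3).

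The difference between tissues was tested for each of the 82 subunits with a p in both tables. None passed after Benjamini-Hochberg adjustment over 9598 genes, where no gene of the table did, and the smallest adjusted p of a subunit was 0.0890. At an unadjusted p under 0.05 there were 6 subunits, where 24.6% of all genes were under it, and all 6 had the lower fold change in muscle, as did 83.5% of the 2358 genes under it in the whole table. The median muscle minus bone difference was -0.38 over the subunits and -1.66 over all genes with a p in both tables. Among genes with a level of at least 50 in both tables it was -0.35 over 54 subunits and -0.01 over 1129 genes. A lower muscle value was thus the general direction over all genes, but not over the genes at that level. Among the 6 subunits were Ndufs3, Cox7a1, Ndufa4, Ndufa12 and Cox5b. For Ndufa4 the difference, muscle minus bone, was -5.99 (derived interval -10.34 to -1.65), with a Benjamini-Hochberg adjusted p of 0.101. For Ndufs5 it was -2.84, with a derived interval of -6.61 to 0.93 that holds 0. In all, 38 of 82 subunits were below 0 in muscle and above 0 in bone, 20 were below 0 in both, 14 above 0 in both and 10 above 0 in muscle and below 0 in bone. As shares these are 46.3%, 24.4%, 17.1% and 12.2% of the subunits, against 32.3%, 14.0%, 37.3% and 16.4% of all 9598 genes.

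The subunits were expressed well above the typical gene in both tables, on the tables' own scale. The header does not say whether levels are scaled by gene length, so an order between genes describes that scale only, and the 2 tables are not known to share it. In muscle 69.0% of the 87 subunits had a level of at least 100, against 6.30% of all genes; in bone the shares were 47.1% and 2.88%. Across the 82 genes Spearman's rho between the muscle and bone levels was 0.86. At 0 in both tables were Atp5o_1, Cox7b2, Cox8c and Ndufb11b, none of which has a p.

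**Figure D5:**
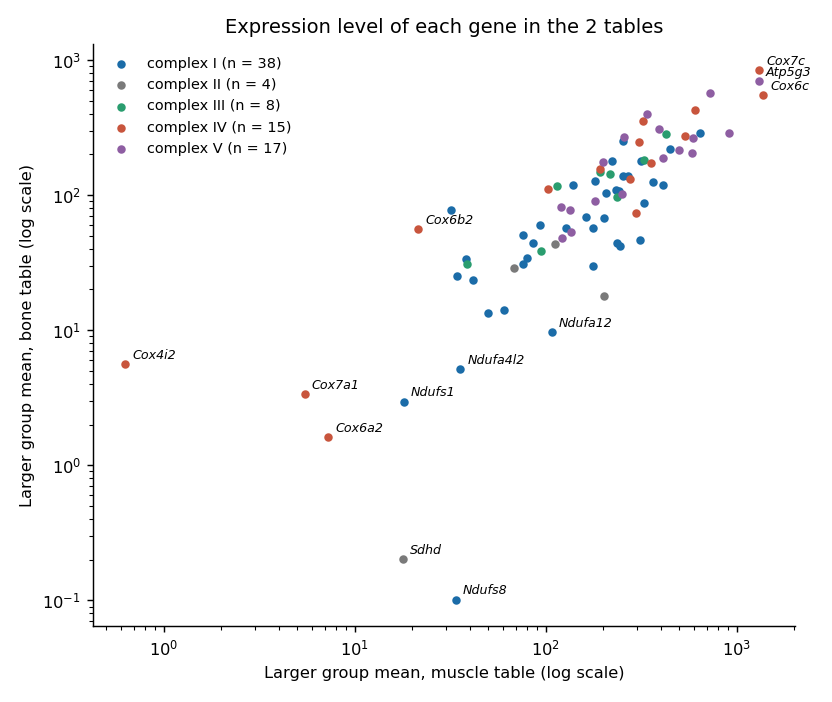
Level (larger group mean) of the 82 subunits with a p in both tables, muscle (x) against bone (y), log axes, coloured by complex. Cox6c, Cox7c and Atp5g3 are at the upper right, and Cox4i2, Cox7a1, Cox6a2, Sdhd and Ndufs8 are at low levels.

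Other genes of the pathway were compared with the subunits from fixed lists, and no member of these lists was called in either tissue. In muscle the 13 subunits encoded in the mitochondrial genome were all below 0, with a median of -0.29. The smallest p among them was that of mt-Nd6, a complex I subunit, with -0.65 per the authors' deposited table (p = 0.0253, FDR = 0.635), followed by mt-Nd5 with -0.60 and mt-Nd2 with -0.43. Cytosolic ribosomal proteins, another group of abundant short transcripts, had 65 of 85 genes below 0 and a median of -0.16, and mitochondrial ribosomal proteins had 39 of 78 below 0 and a median of 0.03. The 45 assembly factors, which build the complexes without joining them, had a median of -0.27 with 24 below 0. Among them Cox10 and Cox15, which make the heme of complex IV, had -5.44 (FDR = 0.280) and -4.31 (FDR = 0.506) per the authors' deposited table, at levels of 22.7 and 29.3, and Coa7 had -7.56 at 8.45. The 16 genes of the tricarboxylic acid cycle had a median of -0.04 with 8 below 0, and Idh3a, Dlat and Mdh2 had the smallest p (2.36, -1.98 and 0.93 per the authors' deposited table). Electron carriers, transporters and subunits outside the name rule, called carriers and transporters here, had a median of 0.02 over 22 genes. The list also holds genes of ubiquinone synthesis and the subunit genes Cyc1 and Ndufab1. The adenine nucleotide carrier Slc25a4 had -0.55 per the authors' deposited table (p = 0.0907), and Coq8a and Coq9, of ubiquinone synthesis, had 8.68 and 6.79 at levels of 21.1 and 5.48.

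The regulators of mitochondrial gene expression stood at low levels in muscle, under 50 but for Yy1 (152). In muscle 10 of 14 (71.4%) were above 0, where 53.5% of all genes with a p were. The 4 below 0 were Ppard (-4.88), Ppara (-2.80), Tfam (-1.36) and Yy1 (-0.31) per the authors' deposited table. Esrra, which encodes estrogen-related receptor alpha, had 7.11 per the authors' deposited table (FDR = 0.232) at a level of 24.9. Ppargc1a and Ppargc1b, which encode PGC-1 coactivators, had 7.73 and 7.60 per the authors' deposited table at levels of 9.85 and 9.96. Fold changes so large at such low levels carry the limit given for the complex IV isoforms, in both tissues. In bone Esrra had -8.05, Ppargc1b 7.50 and Tfam, the mitochondrial transcription factor, 8.80 per the authors' deposited table, at levels of 17.1, 4.35 and 9.65. The bone medians were -0.24 for mitochondrially encoded subunits, 0.29 for cytosolic ribosomal proteins, 1.32 for mitochondrial ribosomal proteins, 3.66 for assembly factors, 2.11 for the tricarboxylic acid cycle, 2.11 for the regulators and 0.75 for carriers and transporters. Named by the smallest p in bone were Ndufaf8 (8.75), Surf1 (8.91) and Timmdc1 (6.56) among assembly factors, Suclg1 (10.31), Suclg2 (9.50) and Dld (8.44) in the cycle, Etfa (8.72), Slc25a4 (-2.71) and Etfb (5.23) among carriers, and mt-Nd4l (-1.31), mt-Nd5 (-0.51) and mt-Nd2 (-0.36) per the authors' deposited table.

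The check of the sample labels and of other cell types was limited. Esr1 had 1.02 in muscle (p = 0.404) and -2.69 in bone (p = 0.245) per the authors' deposited table; which exons are floxed is not in the labels, and a 3' tag can lie outside a deletion, so these values check nothing. Pdgfra, the sorting marker, had a level of 494 in muscle and 8.60 in bone per the authors' deposited table. As sums of levels, mesenchymal stromal markers came to 35444 in muscle and 3381 in bone. Erythroid markers, led by the globins, came to 3931 in muscle and 687588 in bone, and all genes to 1150350 and 1171400. Erythroid markers thus held most of the summed level in bone, and the bone subunit values cannot be read as those of stromal cells alone. Sums for knockout and control apart cannot be given, since the usable columns hold only the higher mean. Ptprc (CD45), against which both gates selected, had a level of 0.781 in muscle and 23.1 in bone, and Pecam1 (CD31) had 3.19 and 0.304 per the authors' deposited table. Vcam1, against which the muscle gate selected, had a level of 53.7 in muscle per the authors' deposited table. That was far above Ptprc and Pecam1 there and below Pdgfra. These are RNA levels on an unnamed scale, so whether the gate held was not tested. By log2 fold change, all 10 neutrophil markers in bone were above 0 (Ltf 7.45 and called per the authors' deposited table, Mmp8 12.17, S100a9 3.06), as were 9 of 10 macrophage markers (C1qc 9.08, C1qb 8.87, Adgre1 8.24) and 8 of 9 erythroid markers (Hba-a2 1.03, Hbb-bs 1.03). In muscle 11 of 12 stromal markers were above 0 (Col1a2 1.27 and called, Col1a1 0.86, Col3a1 0.70 per the authors' deposited table). Erythroid markers had 5 of 6 below 0 (Alas2 -5.64, Hba-a2 -1.41 per the authors' deposited table). Markers of muscle fibres, cells rich in these complexes, summed to 199.9 in muscle and 47.3 in bone, with 6 of 11 below 0 in muscle, Mb at 5.76 and Ckm at -1.77 per the authors' deposited table. Muscle stem cell markers had 3 of 4 below 0 in muscle (Myod1 -7.75, Des -2.11 per the authors' deposited table), with Pax7, Myf5 and Cdh15 listed at 0 in both tables. Endothelial markers summed to 59.1 in muscle and 0.555 in bone, where 6 of 8, among them Cdh5, Kdr and Tek, were listed at 0, and mural markers to 903.5 and 71.2. The part of other cell types in the subunit values was not tested.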

How the data were processed

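RNA of 12 samples in 4 groups of 3 was profiled by 3' end sequencing (QuantSeq), per the labels' protocols. The submitters' processing notes name GRCm38 and mm10; the sources used here do not give the aligner, the counting or the authors' test. The deposited tables, 1 per tissue, give the authors' log2 fold change of knockout over control, p-value and FDR p-value, per the file headers. The larger group mean is a score of the deposited tables, of a unit the file headers do not name. A further 48 columns of per-library values carry codes that match no label and were not used, so depth, replicate spread and the planned count test could not be had, and the authors' comparison was used in its place.

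Standard errors are the size of the log2 fold change over the z value of its two-sided p, and 95% intervals follow from them. The difference between tissues was tested with these errors (Python 3.11.15, scipy 1.17.1), with Benjamini-Hochberg adjustment over all genes with a p in both tables. The code was run on simulated data drawn from the same normal approximation, with large planted differences. That run cannot show whether the approximation holds for these samples. A gene was called at FDR under 0.05. Coordinates are those of GENCODE M21 on GRCm38 by gene identifier, since the tables' own regions equal that build for 1 of 87 members; promoters are RefSeq GRCm38.p6. The last 100 bases of transcripts were compared with whole transcripts of other genes, keeping matches of at least 80 bases at 95% identity or more. The members and lists were chosen with earlier results of these data known. Named were, per complex and tissue, the 2 genes of smallest p and the one of largest group mean, all members of the role lists, and up to 3 genes of smallest p per other list. Alternatives for the calls were other thresholds, other adjustments of p and a floor on the group mean. Those for the medians by complex were means, that floor, and only genes with an FDR. A last one left out the restricted isoforms and misnamed genes. One member is counted but its own values are not reported here.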

Additional observations from a re-analysis of the deposited data

How the results depend on the processing

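No subunit was called at FDR under 0.05 in either tissue. An unadjusted p under 0.05 gave 5 in muscle and 7 in bone, and FDR under 0.1 gave 5 in bone. In muscle 6.41% of all genes were higher and 5.31% lower at that p. In bone 28.8% of all genes were higher and 4.2% lower at it, and 28.1% were higher at FDR under 0.1. For the named subunits, 123 of 123 alternative values stayed on the same side of the threshold, with adjusted p between 0.0966 and 0.998. Of 39 alternatives to the medians by complex, 27 moved by less than 0.1 log2. Some of the 27 left out no gene and so could not move, among them complexes II, III and V without isoforms. The count of 27 is therefore not a measure of stability. In muscle, means in place of medians gave -0.23 for complex I, 0.0055 for complex III and -0.60 for complex IV, and a group mean of at least 50 gave 0.42 for complex II. So the order of the complexes in muscle depends on the summary. In bone, means gave 1.32 (I), 1.28 (II), 1.04 (III), 0.86 (IV) and 0.46 (V). A group mean of at least 50 gave -0.13 (I), 0.44 (III) and 0.087 (IV) in bone, with no complex II gene left. The order in bone thus depends on the summary as well. Leaving out the restricted isoforms and misnamed genes gave 0.087 for complex IV in bone. The cause of these moves was not tested. No paired analysis was possible because the columns that could be used carry no sample or replicate number. For the same reason leaving out each replicate, another normalization and a fit with the replicate block were not run, and depth limits could not be set.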
